A study of Mus musculus with 10 samples.

Results

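The measurements described here are the transcripts of 10 genes of the Notch pathway in the cortex of E16.5 mouse embryos: the receptors Notch1, Notch2 and Notch3, the ligands Dll1, Dll3, Jag1 and Jag2, and the target genes Hes1, Hes5 and Hey1. They were chosen by name, as 10 of the 31053 genes in the count matrices. Each gene was followed in each embryo and in each class of cells, progenitors first, using cells with at least 1000 unique molecular identifiers (UMIs, each standing for a captured transcript) and at most 10% mitochondrial UMIs.

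Single-cell libraries (10X Genomics, 3′ end counting) were available from 10 embryos, with 1 library per embryo: 3 wild type (WT), 4 heterozygous (Gatad2b stop/+, Het) and 3 homozygous (Gatad2b stop/stop, KO). Gatad2b encodes a subunit of the NuRD chromatin remodelling complex. The stop allele is a germline trapping cassette with LacZ inserted in an intron, on a C57BL/6N-Atm1Brd background, so every cell of a mutant embryo carries it, the homozygotes die around birth, and it is possible that splicing past the cassette leaves some normal transcript. WT embryos carry no copy of the cassette and no embryo received a treatment. The tissue was labelled as cortex, yet it also held cells with markers of the ganglionic eminences and striatum. In all, 65779 of 80071 barcodes were kept, 5147 to 8103 per embryo, with 82872641 to 123737385 UMIs per embryo and a median of 10795 to 17077.5 UMIs per cell. Any pair of libraries shared 4 to 19 cell barcodes.

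The targeted gene followed the labels. Levels are given as CPM, the usual scaling of the UMIs of a gene to the total UMIs of an embryo or class. Gatad2b stood at 132.1 to 141.7 CPM in the WT embryos, at 88.14 to 96.58 in the Het embryos and at 49.54 to 58.19 in the KO embryos, so the 3 groups did not overlap and the KO cells still held Gatad2b transcripts. For the protein, the study reports none detectable in homozygous cerebellum by western blot and none in homozygous E16.5 cortex by immunostaining. Whether the remaining transcripts are normal was not tested. The library names begin in 2 ways: 1 beginning covers WT 1 to 3 and Het 4, the other covers Het 1 to 3 and KO 1 to 3. What the beginning stands for is not given in the sources used here, and genotype and name beginning cannot be told apart between KO and WT. KO was therefore also compared with Het 1 to 3, which share its name beginning. Het 3 held 6.004% endothelial-like cells against 0.188% to 0.769% in the other 9 embryos.

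Notch receptors are cleaved when a ligand on a neighbouring cell pulls on them, and the freed intracellular part enters the nucleus and, with the DNA-binding protein RBPJ, switches on genes of the Hes and Hey families. These encode repressors that hold radial glia, the stem cells of the developing cortex, in the progenitor state. Cells that start to differentiate, among them the intermediate progenitors that radial glia produce, carry ligand on their surface and so signal back to their neighbours. In blood vessels the same pathway specifies arteries and maintains mural cells.

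The promoters of Hes5 and Dll1 are printed because the target Hes5 and the ligand Dll1 had the clearest differences between genotypes among progenitors. Sequences are from RefSeq (GRCm38.p6), 250 bases before each annotated start, 5′ to 3′ on the strand of the gene. The table held a promoter for 8 of the 10 genes. In Hes5, at chr4:154960673-154960922 on the plus strand, capitals mark the RBPJ core (TGGGAA, or TTCCCA on the other strand), found 226 to 221 and 82 to 77 bases before the start.
Hes5: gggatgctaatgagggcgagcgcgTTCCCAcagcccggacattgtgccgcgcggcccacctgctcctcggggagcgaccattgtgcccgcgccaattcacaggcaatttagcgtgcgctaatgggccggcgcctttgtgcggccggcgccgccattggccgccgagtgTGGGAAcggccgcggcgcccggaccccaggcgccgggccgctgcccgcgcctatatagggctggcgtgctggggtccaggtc
In the upstream start of Dll1, at chr17:15376933-15377182 on the minus strand, capitals mark E-boxes (CANNTG, the letters that proneural and Hes or Hey proteins can recognise), found 229 to 224, 155 to 150 and 132 to 127 bases before the start.
Dll1: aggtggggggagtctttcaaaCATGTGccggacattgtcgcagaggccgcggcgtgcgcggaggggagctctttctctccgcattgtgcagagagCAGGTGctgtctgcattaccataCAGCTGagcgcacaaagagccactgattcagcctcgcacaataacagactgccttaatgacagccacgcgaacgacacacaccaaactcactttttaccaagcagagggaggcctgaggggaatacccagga
A further annotated start of Dll1 lies within the gene and is not shown. The Hes5 window also held 1 E-box, and the Dll1 window held no RBPJ core. Of 32851 promoters of this length, 21.6% held an RBPJ core and 2.77% held 2 or more, while 66.2% held an E-box and 31.8% held 2 or more. The letters are a description of the windows and were not tested as sites.

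Classes of cells were found by clustering with the Notch genes left out and were named from marker lists. Radial glia-like cells numbered 1333, intermediate progenitor-like cells 1592 and ganglionic eminence progenitor-like cells 2063, and 362 glial progenitor-like cells were too few per embryo to test. The markers mostly bore out the names: 11 or 12 of 12 radial glia markers, 9 or 10 of 10 intermediate progenitor markers and 6 or 7 of 9 ganglionic eminence progenitor markers were detected in the sub-clusters of each class, and Aldoc and Tnc, Neurog2 and Eomes, and Dlx6os1 and Nrxn3 led the largest of them, with Dlx1 and Dlx2 also among the 10 leading genes of the last. Intermediate progenitor-like sub-cluster 6, with 613 cells, was less distinct. Only 1 of its 10 leading genes was on the class list, and erythroid markers ranked second. At a higher clustering resolution, sub-clusters of 353 and 281 cells were named erythroid, with intermediate progenitor markers second or first. Radial glia-like sub-clusters 7 and 13 also had only 1 class marker among their 10 leading genes (Fabp7 and Hopx). Microglia markers ranked second in sub-cluster 7, and mural and fibroblast markers in sub-cluster 13. Without integration, a sub-cluster of 214 cells with Tesc and Id3 among its leading genes was unnamed, with erythroid markers first and radial glia markers second. Levels below are normalized CPM, scaled to the UMIs of the class in that embryo. Because reads come from the 3′ end, levels are compared between classes and embryos for the same gene, not between genes.

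The receptors were highest in radial glia-like or vessel wall cells of WT embryos. Notch1 (chr2:26457903-26516663, mm10), the main receptor of cortical progenitors, stood at 246 ± 9.68 CPM (SD, n = 3) in radial glia-like cells, above mural and fibroblast-like cells at 210 ± 12.3, ganglionic eminence progenitor-like cells at 139 and intermediate progenitor-like cells at 89.5. It was lowest among neurons in layer II-IV-like cells, at 1.23 ± 0.148 CPM. Notch2 (chr3:98013527-98150361), a close relative of Notch1, was more restricted, with 86.0 ± 5.86 CPM in radial glia-like cells, 57.6 ± 21.0 in the shallow cluster 20 (731 cells led by Fabp7, Tnc, Mt3 and Ttr, with a median depth of 1551 UMIs) and at most 16.4 in any other class. Notch3 (chr17:32120820-32166852), the receptor of vascular mural cells, had its highest level in mural and fibroblast-like cells at 159 ± 23.3 CPM, followed by radial glia-like cells at 32.1 ± 1.41 and cluster 20 at 30.4 ± 14.03, whose embryo ranges overlapped.

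The ligands divided between committed progenitors, vessels and neurons. Dll1 (chr17:15367354-15376872), the ligand of differentiating progenitors, reached 41.9 ± 13.8 CPM in glial progenitor-like and 37.8 ± 3.87 in ganglionic eminence progenitor-like cells, which overlapped, then 19.6 ± 3.19 in intermediate progenitor-like and 12.02 ± 2.38 in radial glia-like cells. Dll3 (chr7:28293553-28302238), a ligand-like protein that acts inside the cell that makes it, followed a similar order, with 46.6 ± 3.61 CPM in ganglionic eminence progenitor-like, 37.4 ± 2.59 in glial progenitor-like and 27.4 ± 4.00 in layer I-like cells, against 2.69 ± 0.425 in radial glia-like cells. Both ligands were thus lower in radial glia-like cells, the class highest in Notch1 and Notch2, than in committed progenitors.

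Jag1 (chr2:137081456-137116644), a ligand of vessel walls and ventricular progenitors, stood at 58.7 ± 9.81 CPM in mural and fibroblast-like cells and at 27.6 ± 9.17 in radial glia-like cells, and the latter overlapped endothelial-like cells at 26.7 ± 8.25. Jag2 (chr12:112907819-112929776) stood at 81.3 ± 34.5 CPM in endothelial-like, 57.3 ± 6.399 in the shallow cluster 14 and 56.1 ± 21.2 in mural and fibroblast-like cells, which overlapped one another. Among neurons it was highest in layer I-like cells at 17.1 ± 3.13 and layer II-IV-like cells at 11.98 ± 0.411 CPM, and its UMIs were too few to test between KO and WT in any progenitor class.

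The targets were highest in glial progenitor-like, radial glia-like or vessel wall cells. Hes5 (chr4:154960923-154962371), a repressor of proneural genes, stood at 596 ± 60.5 CPM in glial progenitor-like and 398 ± 26.0 in radial glia-like cells, the latter overlapping cluster 20, and was 25.3 ± 12.7 in ganglionic eminence progenitor-like and 12.2 ± 2.12 in intermediate progenitor-like cells. Hes1 (chr16:30064384-30067796), a related repressor that other pathways can also induce, was highest in mural and fibroblast-like cells at 240 ± 23.0 CPM, followed by endothelial-like cells at 148 ± 35.5 and radial glia-like cells at 115 ± 13.6, whose ranges overlapped. Hey1 (chr3:8663359-8667256), a target known from arteries and from progenitors, ranged from 33.1 to 47.3 CPM in glial progenitor-like, endothelial-like, radial glia-like and mural and fibroblast-like cells, with neighbours in this order overlapping.

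**Figure D1:**
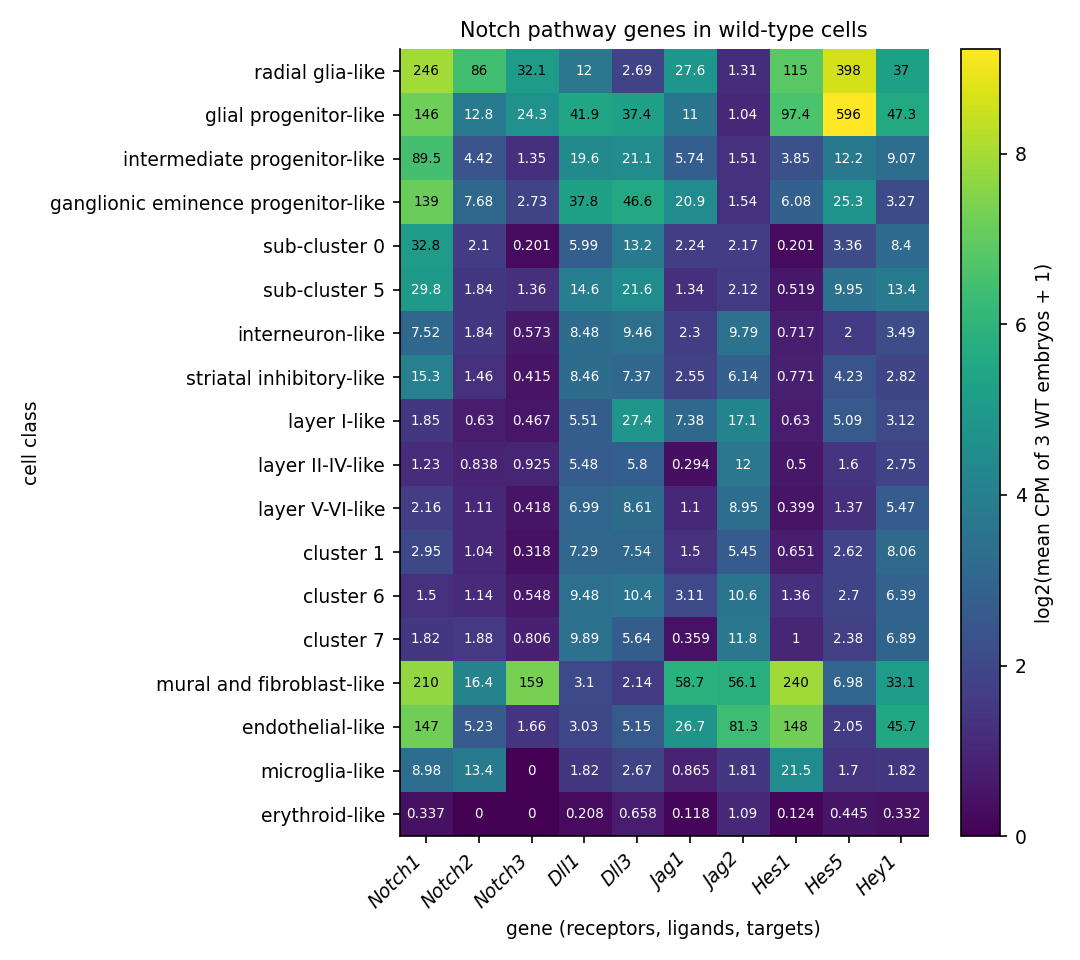
Mean level of each Notch pathway gene (columns) in each class of cells (rows) of the 3 WT embryos, in CPM. Notch1, Notch2, Hes1 and Hes5 are high in radial glia, Dll1 and Dll3 in glial and ganglionic eminence progenitors, and Notch3, Jag1 and Hes1 in mural cells.

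Background was read from cells outside the neural lineage. In erythroid-like cells, which should lack the pathway, 0% to 0.892% of 1570 cells held a UMI of any 1 of the 10 genes, at a median depth of 9230 UMIs. In 299 microglia-like cells, at a median of 3739 UMIs, the share was 1.67% for Dll1, 1.34% for Hes5, 2.01% for Dll3 and 3.01% for Jag2, and the Dll3 level was 2.34 CPM. In radial glia-like cells the same share was 93.0% for Notch1, 80.9% for Hes5, 68.6% for Hes1, 19.8% for Dll1 and 4.73% for Dll3, at a median depth of 18120 UMIs. In intermediate progenitor-like cells it was 22.4% for Hes5 and 34.5% for Dll1. The level of Dll3 in radial glia-like cells, at 2.93 CPM, was thus near that in microglia-like cells, which rested on 6 positive cells. It lay above the 0.757 CPM of erythroid-like cells, 0.701% of which held a Dll3 UMI. As the backgrounds differ, the Dll3 level in radial glia-like cells is not read as expression. Other genes were higher in microglia-like cells, with Notch1 at 19.08 CPM, Notch2 at 22.2 and Hes1 at 12.85. Whether microglia-like cells express these 3 genes themselves was not tested, so these levels are not read as background. Pooled Notch2 was 7.621 CPM in intermediate progenitor-like and 11.64 in ganglionic eminence progenitor-like cells, below the microglia-like level. In erythroid-like cells Notch2 stood at 0.126 CPM, from 2 of 1570 cells. The part of background in the Notch2 levels of these progenitor classes was not tested.

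The first comparison asks how loss of Gatad2b changes the pathway within radial glia-like cells. Hes5 fell and Dll1 and Notch2 rose in KO, while the levels of Notch1, Notch3, Jag1, Hes1 and Hey1 overlapped between KO and WT on the normalized scale. On plain CPM, without TMM scaling, Notch1 (240.1 to 262.9 in WT, 227 to 233.5 in KO) and Notch3 (31.54 to 34.4 and 16.13 to 30.99) did not overlap. By edgeR's quasi-likelihood test (adjusted p under 0.05 and absolute log2 fold change above 0.25), 3 of 9 genes tested were called between KO and WT, beside 18.6% of all 11361 genes. Jag2 had too few UMIs to test there.

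Notch1 in radial glia-like cells was 250.6, 235.2 and 253.0 CPM in WT 1 to 3, 260.9, 239.5, 295.5 and 245.9 in Het 1 to 4 and 239.8, 242.3 and 230.5 in KO 1 to 3. The main receptor thus overlapped across genotypes on this scale, with a KO log2 fold change over WT of −0.05 ± 0.082 (SE). Notch2 was 90.21, 88.48 and 79.31 CPM in WT, 118.9, 113.3, 134.9 and 84.81 in Het and 127.5, 116.7 and 115.0 in KO. All KO embryos were above all WT embryos, and Het 4, whose library name begins like those of WT, lay within the WT range while Het 1 to 3 lay above it and overlapped KO. The KO rise in Notch2 was 0.48 ± 0.129 on the log2 scale (edgeR adjusted p = 0.0125). It was no longer called without WT 3 (adjusted p = 0.067), without KO 1 (0.0561) or when cells were clustered without integration. With the name beginning as a covariate the Notch2 estimate was −0.05 (adjusted p = 0.926). Here and below, that covariate can be estimated only from the single embryo Het 4 against Het 1 to 3. Against Het 1 to 3, the KO difference in Notch2 was −0.03 ± 0.088 (adjusted p = 0.914).

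Dll1 in radial glia-like cells was 12.25, 9.529 and 14.28 CPM in WT, 28.95, 17.54, 21.22 and 21.86 in Het and 21.32, 39.53 and 23.16 in KO. Every mutant embryo stood above every WT embryo, and KO overlapped Het. The rise was 1.16 ± 0.2497 in KO (log2, edgeR adjusted p = 0.00298), from 86 UMIs in WT and 268 in KO, and 0.93 ± 0.245 in Het, which was not called (adjusted p = 0.0646; DESeq2 0.0369). With the name beginning as a covariate, the KO rise in Dll1 was 1.08 and no longer called (adjusted p = 0.15). Dll3 was 2.227, 3.063 and 2.776 CPM in WT, 5.293, 4.267, 5.205 and 2.613 in Het and 1.605, 0.930 and 2.058 in KO. Het 1 to 3 were high and the KO embryos low, from only 17 UMIs in KO and at levels near those of microglia-like cells. The KO change against Het 1 to 3 was −1.59 ± 0.397 (edgeR adjusted p = 0.0301), and it was lost when any 1 of the 6 embryos was left out (highest adjusted p = 0.119) and under DESeq2 (adjusted p = 0.183).

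Hes5 in radial glia-like cells was 369.8, 421.3 and 401.3 CPM in WT, 300.4, 349.0, 348.7 and 337.1 in Het and 221.9, 259.0 and 257.1 in KO. The 3 genotypes formed separate ranges in the order of the number of stop alleles. Hes5 fell by 0.70 ± 0.084 in KO on the log2 scale (edgeR adjusted p = 1.658e-05), and the call remained without any 1 embryo. It also remained with the name beginning as a covariate (log2 fold change −0.68, adjusted p = 0.00905), a fit that rests on Het 4. Against Het 1 to 3 Hes5 fell by 0.44 ± 0.080 (adjusted p = 0.00377), with 3 of 9 genes called in that comparison beside 4.01% of all genes. That call was lost when cells were clustered without integration over embryos (−0.30, adjusted p = 0.114). The Het value of −0.26 ± 0.077 was not called (adjusted p = 0.101).

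Hes1 in radial glia-like cells was 118.1, 126.6 and 99.94 CPM in WT, 104.6, 77.76, 94.09 and 101.2 in Het and 146.7, 124.2 and 139.7 in KO. The KO embryos were above all Het embryos and overlapped WT. Hes1 rose by 0.56 ± 0.102 in KO over Het 1 to 3 (edgeR adjusted p = 0.00348), so over the class as a whole Hes1 and Hes5 moved in opposite directions in this comparison. Against WT the Hes1 difference was 0.26 ± 0.110 (adjusted p = 0.109). None of 9 genes was called in Het against WT by edgeR, beside 1.18% of all genes, with 4 at an unadjusted p under 0.05 and 1, Dll1, called by DESeq2.

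**Figure D2:**
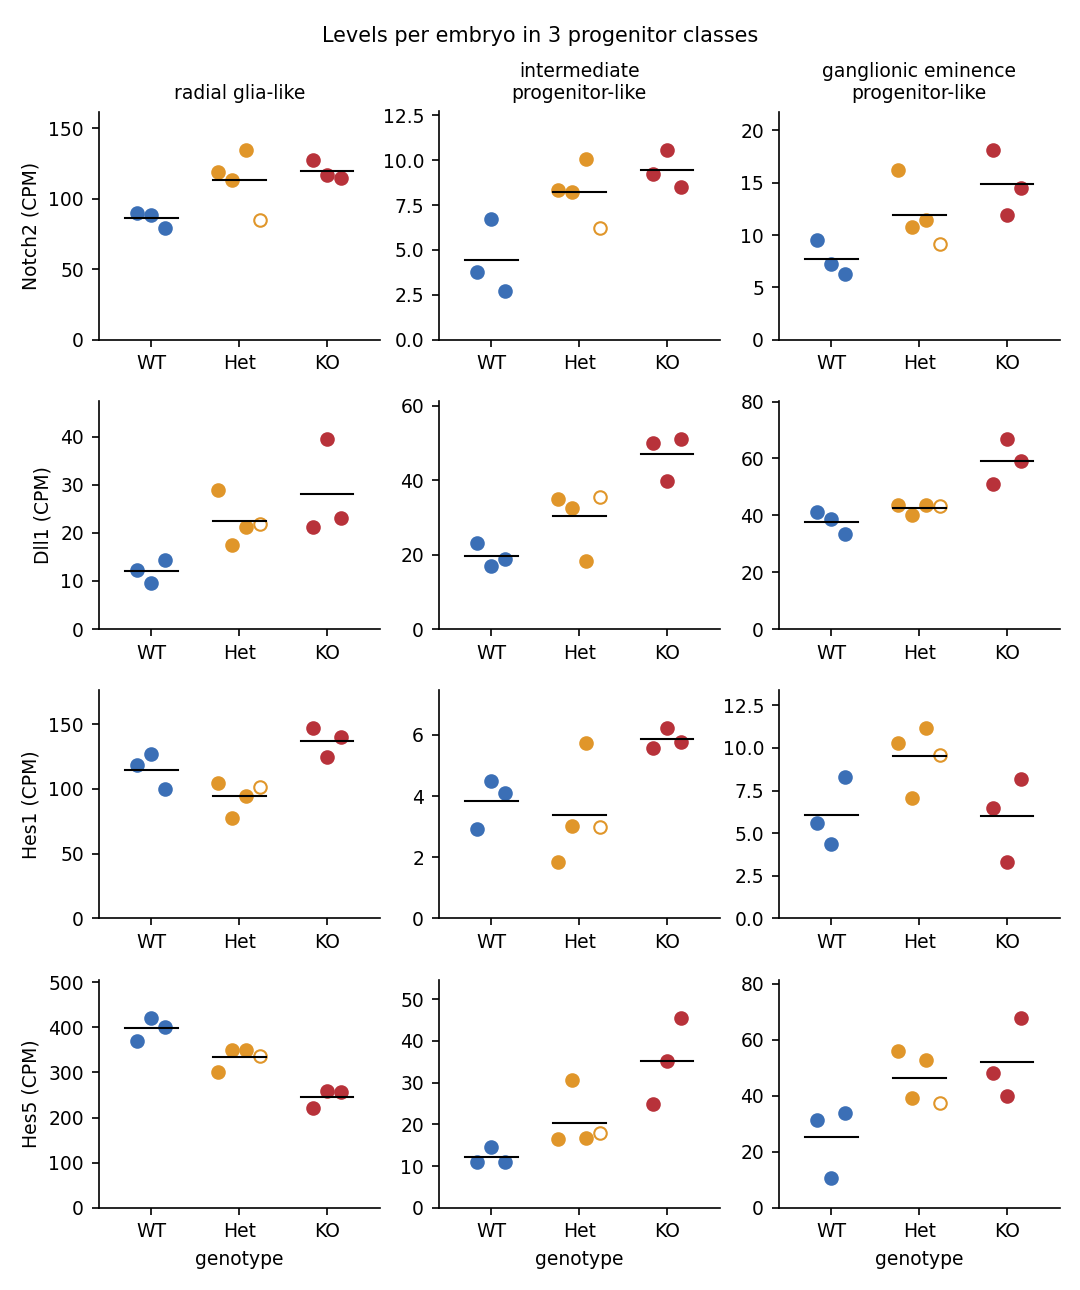
Level of Notch2, Dll1, Hes1 and Hes5 (rows, CPM) in each embryo for the 3 progenitor classes (columns). Points are embryos, lines are group means and the open marker is Het 4, whose library name begins like those of WT. In radial glia Hes5 steps down from WT to Het to KO, while in the other progenitors the KO points lie above WT.

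Other properties of the radial glia-like cells moved with these results. Of the 12 radial glia markers, 7 fell in KO (Tnc, Ptprz1, Mfge8, Fabp7, Aldoc, Slc1a3 and Emx2) and none rose, and their summed level was 17110 to 19660 CPM in WT and 11770 to 14320 in KO. Of 5 glial progenitor markers tested, 4 fell, from summed levels of 124 to 179.1 CPM to 63.32 to 74.47. Of 9 intermediate progenitor markers tested, 4 rose (Btg2, Insm1, Rhbdl3 and Gadd45g) and Kif26b fell, with overlapping sums of 606.7 to 870.3 CPM in WT and 744.5 to 969.7 in KO. Of 10 cycling markers, 5 rose. The summed level of the mural cell markers was 59.15 to 106.7 CPM in WT and 19.27 to 27.86 in KO, and that of the choroid plexus markers was 42.44 to 1363 and 11.59 to 14.95.

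Sub-cluster 13, led by Id3 and Tesc and with the mural and fibroblast marker Dcn among its leading genes, made up 13.1% to 15.7% of WT radial glia-like cells. In KO it made up 2.83% to 4.23%. Sub-cluster 3 held most of the class in both groups, with 51.5% to 57.4% in WT and 69.8% to 79.7% in KO. Sub-cluster 7, led by Apoe and Mt3 and with a Hes5 level of 645.6 CPM in WT, made up 27.0% to 33.6% in WT and 17.5% to 25.9% in KO. With sub-cluster shares of UMIs set to those of WT, the KO difference in Hes5 was −0.56 against −0.77 on the same log2 CPM scale as measured, that in Dll1 was 1.04 against 1.11 and that in Notch2 was 0.39 against 0.41. None of the 3 overlapped between groups, where the smallest p that 3 against 3 embryos allow is 0.1 by an exact permutation test. Within sub-cluster 3 alone, Hes5 fell by 0.56 ± 0.139 and Dll1 rose by 1.01 ± 0.300 over WT (edgeR adjusted p = 0.0138 and 0.0358, beside 10.3% of genes called), while Notch2 at 0.28 was not called (adjusted p = 0.191), and Hes1 rose by 0.61 ± 0.1003 over Het 1 to 3 (adjusted p = 0.00117, beside 2.75%). The Hes5 difference from Het 1 to 3 in sub-cluster 3 was −0.20, with overlapping embryos, and was not called (edgeR adjusted p = 0.497). With cell cycle phases set to WT shares of UMIs, the Hes5 difference was −0.72. The part of the marker changes in these results was not tested.

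Intermediate progenitor-like cells gave the opposite sign for Hes5. There, Hes5, Dll1 and Notch2 all rose in KO: 3 of 8 genes tested, beside 16.51% of 10775 genes. Notch3 and Jag2 had too few UMIs to test. Dll1 was 23.08, 16.85 and 18.73 CPM in WT, 35.04, 32.39, 18.19 and 35.42 in Het and 49.93, 39.85 and 51.05 in KO. The KO embryos stood above all others and Het 3 lay among WT. The KO rise was 1.28 ± 0.196 (log2, edgeR adjusted p = 0.000534), from 141 UMIs in WT and 501 in KO, and was still called with the name beginning as a covariate (1.54, adjusted p = 0.0195). Against Het 1 to 3 the difference of 0.67 was not called (adjusted p = 0.068), but was with the replicate block (0.69, adjusted p = 0.0417).

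Hes5 in intermediate progenitor-like cells was 10.91, 14.60 and 10.96 CPM in WT, 16.47, 30.67, 16.75 and 17.86 in Het and 24.96, 35.10 and 45.56 in KO. All 7 mutant embryos exceeded all WT embryos, at levels far below those of radial glia-like cells of any genotype. The KO rise was 1.51 ± 0.264 (edgeR adjusted p = 0.00129), from 89 and 365 UMIs, and was called without any 1 embryo, but not with the name beginning as a covariate (1.29, adjusted p = 0.174). Notch2 was 3.776, 6.740 and 2.740 CPM in WT, 8.368, 8.207, 10.05 and 6.251 in Het and 9.210, 10.60 and 8.508 in KO. KO lay above WT, and the rise of 1.04 ± 0.304 (adjusted p = 0.0268) rested on 33 UMIs in WT and was lost without WT 1, WT 3, KO 1, KO 2 or KO 3 (highest adjusted p = 0.104), under DESeq2 and with the covariate (0.55, adjusted p = 0.659).

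Hes1 in these cells was 2.937, 4.494 and 4.110 CPM in WT and 5.574, 6.216 and 5.764 in KO. The groups did not overlap, yet the difference of 0.59 ± 0.357 was not called (edgeR adjusted p = 0.288). In Het against WT none of 8 genes was called by edgeR or DESeq2, beside 0.677% of all genes, with 3 at an unadjusted p under 0.05. In KO against Het 1 to 3 none of 9 was called by either, beside 1.61%, with 4 at an unadjusted p under 0.05.

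Markers of radial glia were also higher in the intermediate progenitor-like cells of KO. Of the 12, 5 rose (Ddah1, Hopx, Fabp7, Aldoc and Slc1a3) and none fell, while their summed level overlapped at 1090 to 1217 CPM in WT and 1173 to 1373 in KO. Of the class's own 10 markers, 5 rose (Btg2, Insm1, Eomes, Rhbdl3 and Gadd45g), with sums of 2806 to 2935 against 3492 to 3809 CPM. Of 10 cycling markers, 9 fell. Erythroid transcripts, from 125.7 to 4936 CPM in WT and 34.14 to 6533 in KO, varied between embryos of both groups. With sub-cluster shares of UMIs set to those of WT, the KO difference on the log2 CPM scale was 1.36 for Hes5, 0.99 for Dll1 and 0.94 for Notch2. In sub-cluster 2, led by Neurog2 and Eomes and with few cycling cells, Hes5 rose by 1.93 ± 0.327 and Dll1 by 1.03 ± 0.217 (edgeR adjusted p = 0.0013 and 0.00707, beside 6.66% of genes), while Notch2 at 0.85 was not called (0.188). In the cycling sub-cluster 6 Dll1 rose by 1.11 ± 0.291 (adjusted p = 0.0357, beside 3.34%), and the Hes5 value of 1.16 was not called (0.164). The part of these marker changes in the Notch results was not tested.

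Ganglionic eminence progenitor-like cells, the cycling precursors of inhibitory neurons, showed the same 3 genes rising in KO: 3 of 9 tested, beside 6.69% of 10908 genes. Dll1 was 41.09, 38.77 and 33.53 CPM in WT, 43.44, 39.95, 43.73 and 43.14 in Het and 51.17, 66.85 and 58.99 in KO. KO lay above Het and WT, with a rise of 0.64 ± 0.108 over WT (edgeR adjusted p = 0.00185). Hes5 was 31.26, 10.70 and 33.93 CPM in WT, 55.96, 39.33, 52.59 and 37.28 in Het and 48.05, 39.97 and 67.84 in KO. Both mutant groups lay above WT and overlapped each other, and WT 2 stood far below the other 2 WT embryos. The rise of 1.10 ± 0.263 (adjusted p = 0.0157) was lost without WT 2 (0.0857), without KO 3 (0.0906) and under DESeq2.

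Notch2 in these cells was 9.482, 7.233 and 6.312 CPM in WT, 16.20, 10.75, 11.43 and 9.175 in Het and 18.18, 11.90 and 14.52 in KO. KO lay above WT, and Het 4 lay within the WT range. The KO rise of 0.94 ± 0.242 (edgeR adjusted p = 0.0235) was lost without WT 2, WT 3, KO 1 or KO 3 (highest adjusted p = 0.0982) and without integration. With the name beginning as a covariate, none of the 3 was called in this class: Dll1 was at 0.67 (adjusted p = 0.197), Hes5 at 0.70 (0.711) and Notch2 at 0.48 (0.827). Within its sub-clusters, Dll1 rose by 0.94 ± 0.219 in sub-cluster 1, led by Dlx6os1 and Nrxn3 (adjusted p = 0.0147, beside 4.13% of genes), and Hes5 by 1.12 ± 0.268 and Notch2 by 1.11 ± 0.282 in sub-cluster 4 (0.0261 and 0.0335, beside 2.93%). Not called by edgeR were Hes5 at 1.17 (adjusted p = 0.17) and Notch2 at 0.21 (0.845) in sub-cluster 1, and Dll1 at 0.51 (0.0583) in sub-cluster 4. Whether the effects differed between the sub-clusters was not tested. None of 9 genes was called in Het against WT (0.266% of all genes) or in KO against Het 1 to 3 (0.196%) by edgeR or DESeq2, with 4 at an unadjusted p under 0.05 in each. Of 5 glial progenitor markers tested, 3 fell in KO, with sums of 100.1 to 148.6 against 35.90 to 51.77 CPM. Of 7 striatal inhibitory markers tested, 2 fell (Meis2 and Isl1), with sums of 1476 to 1845 against 1195 to 1328 CPM. Of 11 radial glia markers tested, 2 rose (Fabp7 and Sox9) and 2 fell (Mfge8 and Emx2), with overlapping sums. The part of these marker changes in the Notch results was not tested.

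The difference in direction of Hes5 was tested directly. In a model of both classes with the embryo as a block, the KO effect on Hes5 was 2.21 ± 0.208 higher on the log2 scale in intermediate progenitor-like than in radial glia-like cells (edgeR adjusted p = 1.026e-06, beside 8.48% of genes past that threshold). It was 1.81 ± 0.259 higher in ganglionic eminence progenitor-like than in radial glia-like cells (adjusted p = 0.000172, beside 2.75%). The Het effect differed by 0.97 ± 0.220 between intermediate progenitor-like and radial glia-like cells (adjusted p = 0.0327, beside 1.12%). These were the 3 differences called of 54 tested over the 10 genes and 3 pairs of classes (the other comparisons had 0.125%, 0.787% and 4.56% of all genes past the threshold), so the effects on Dll1 and Notch2 were not shown to differ between progenitor classes. Nor were they shown to be alike. On simulated counts for KO against WT in radial glia-like and intermediate progenitor-like cells, this fit recovered 29% of differences of 1 on the log2 scale. The simulation changed 200 of 11597 genes and gave every gene the same spread between embryos. As these settings differ from the data, the share recovered in the data themselves is not known.

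Shares of positive cells, with each cell thinned to 5000 UMIs, separated KO from WT for some of these results. The share of radial glia-like cells with a Hes5 UMI was 66.7%, 68.9% and 63.1% in WT and 48.0%, 53.9% and 53.2% in KO, and positive cells held a mean of 3.70 UMIs in WT and 2.67 in KO. The shares did not overlap, with a difference of −14.5 percentage points (two-sided exact permutation p = 0.1, the smallest that 3 against 3 allows). Without thinning, the difference was −4.11 points. The share of intermediate progenitor-like cells with a Dll1 UMI was 8.33%, 8.80% and 6.92% in WT and 18.9%, 16.7% and 21.3% in KO, and with a Hes5 UMI 5.30%, 2.40% and 3.85% against 11.44%, 8% and 15.46%. All KO embryos exceeded all WT embryos for both genes (exact permutation p = 0.1 each). Thinning kept 1286 of the 1333 radial glia-like and 1560 of the 1592 intermediate progenitor-like cells. Unthinned, the differences were 18.7 points for Dll1 and 13.1 for Hes5. In ganglionic eminence progenitor-like cells the thinned shares overlapped, with Dll1 in 18.8%, 17.9% and 12.5% of WT and 17.3%, 27.3% and 19.5% of KO cells and Hes5 in 9.09%, 2.72% and 10.62% against 9.35%, 12.05% and 12.45% (exact permutation p = 0.3 and 0.2). Notch2 in radial glia-like cells overlapped too, with 37.6%, 33.6% and 33.3% in WT and 45.7%, 36.3% and 35.5% in KO (exact permutation p = 0.3).

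**Figure D3:**
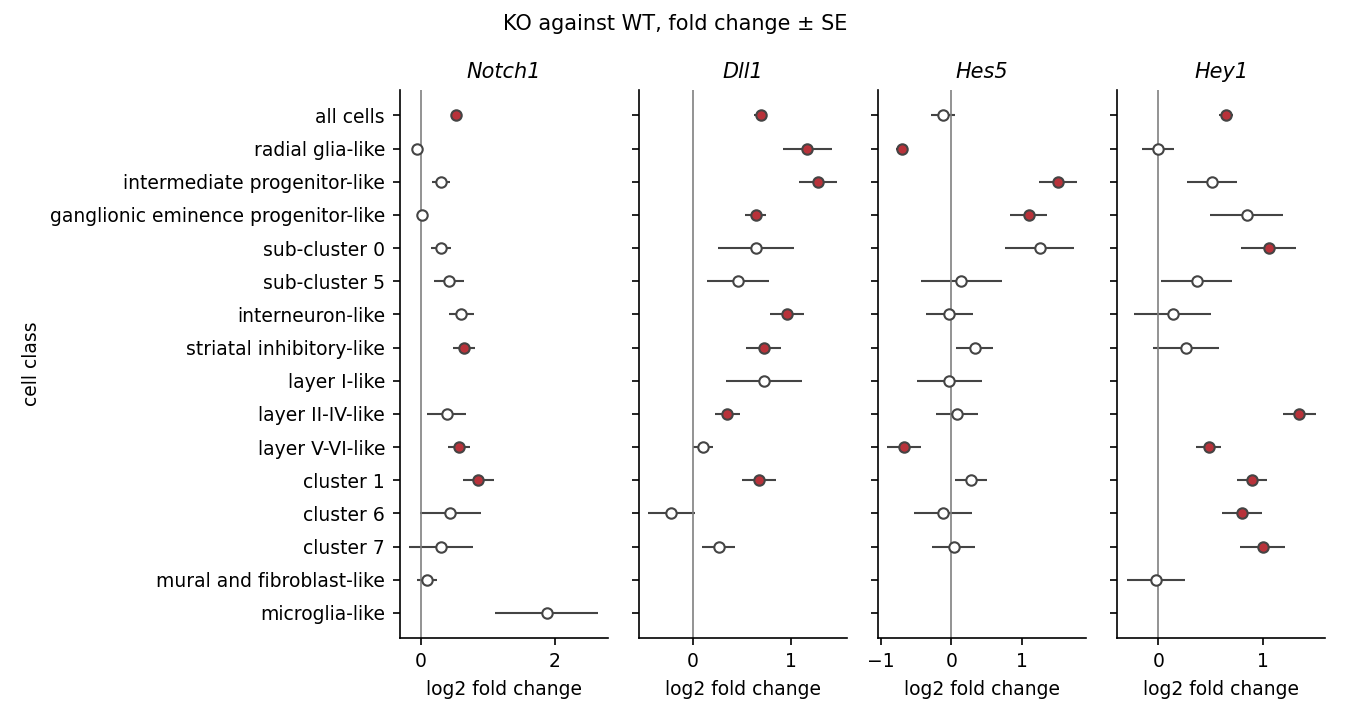
Log2 fold change of KO over WT for Notch1, Dll1, Hes5 and Hey1 in each class, with standard errors. Filled points passed the test, open points did not and classes without a point had too few UMIs. Hes5 lies below 0 in radial glia and above 0 in intermediate and ganglionic eminence progenitors, while called Dll1 and Hey1 points all lie above 0.

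Outside the progenitors the calls concerned Hey1, Dll1 and Notch1 and, in layer V-VI-like neurons, also Hes1 and Hes5. Over all classes tested, Dll1 rose in 7 of 13 and fell in none, Hey1 rose in 6 of 13, Notch1 in 3 of 15 and Notch2 in 3 of 12, and Hes5 rose in 2 and fell in 2 of 14. Hes1 rose in 1 of 7. By edgeR, Jag1, Jag2, Notch3 and Dll3 were called in none of the 10, 10, 5 and 13 classes in which they were tested between KO and WT, nor by DESeq2, with 2, 1, 0 and 2 classes at an unadjusted p under 0.05.

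Hey1 in layer II-IV-like neurons was 2.984, 2.420 and 2.835 CPM in WT, 3.263, 3.744, 2.870 and 3.770 in Het and 6.216, 7.343 and 7.444 in KO. The KO embryos were well apart from all others. The WT values lay near the pooled 2.73 CPM of microglia-like cells, which rested on 5 positive cells, and above the 0.316 CPM of erythroid-like cells. The part of background in the WT level was not tested. The rise was 1.34 ± 0.157 over WT (log2, edgeR adjusted p = 8.082e-06, 2 of 9 Notch genes called beside 26.8% of all genes) and 1.08 ± 0.163 over Het 1 to 3 (adjusted p = 0.000197, 1 of 7 beside 10.3%), and both calls remained without any 1 embryo. Hey1 in cluster 1, neurons led by Unc5d, Sema3c and Nrp1, was 9.180, 6.610 and 8.403 CPM in WT, 10.27, 9.206, 7.783 and 11.44 in Het and 13.69, 16.80 and 15.08 in KO. KO again lay above both other groups, by 0.89 ± 0.143 over WT (adjusted p = 0.000163, 3 of 8 beside 24.8%) and 0.72 ± 0.127 over Het 1 to 3 (adjusted p = 0.000858, 2 of 8 beside 6.6%).

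In layer V-VI-like neurons Hey1 was 5.910, 4.623 and 5.883 CPM in WT, 4.752 to 6.082 in Het and 7.607, 7.808 and 7.379 in KO, so KO was above both. The rise was 0.48 ± 0.121 over WT (edgeR adjusted p = 0.00784, 4 of 10 Notch genes called beside 24.8% of all genes) and 0.37 ± 0.095 over Het 1 to 3 (adjusted p = 0.0206, 2 of 9 beside 10.8%). The second was lost without Het 2, Het 3, KO 1 or KO 2 (highest adjusted p = 0.0823) and under DESeq2. Hey1 also rose in cluster 7 (0.99, adjusted p = 0.00246, 1 of 7 beside 18.6%), in sub-cluster 0 (1.05, 0.0102, 1 of 5 beside 9.46%; without WT 2, 0.0553) and in cluster 6 (0.80, 0.0432, 1 of 9 beside 2.51%). Under DESeq2 neither the sub-cluster 0 nor the cluster 6 rise was called. The cluster 6 call was lost without any of 7 embryos (WT 1 to 3, Het 2 and 3, KO 1 and 3; highest adjusted p = 0.156). In cluster 7 the KO difference over Het 1 to 3 of 0.58 (adjusted p = 0.118) was called with the replicate block (0.56, 0.0313).

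Dll1 in interneuron-like cells was 10.14, 7.811 and 7.488 CPM in WT, 12.89, 12.59, 8.826 and 8.990 in Het and 17.47, 15.82 and 15.93 in KO. KO stood above all others, by 0.96 ± 0.175 over WT (edgeR adjusted p = 0.00733, 1 of 8 beside 8.71%). In striatal inhibitory-like cells Dll1 was 9.652, 8.430 and 7.311 CPM in WT and 13.04, 11.25 and 17.41 in KO. The groups did not overlap, and the rise of 0.72 ± 0.180 (adjusted p = 0.0105, 2 of 8 beside 16.9%) was lost without WT 3 or KO 3 (highest 0.0759). In cluster 1 Dll1 rose by 0.67 over WT (adjusted p = 0.00708), with overlapping embryos, and by 0.63 over Het 1 to 3 (0.0164). The first was lost without WT 3 or KO 3 (highest 0.0606), the second without Het 1, Het 3 or KO 3 (highest 0.115). In layer II-IV-like neurons the rise of 0.35 (adjusted p = 0.0405) was lost without any of 6 embryos (WT 1 to 3, Het 1, KO 2 and KO 3; highest 0.16) and under DESeq2.

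Notch1 in striatal inhibitory-like cells was 17.61, 17.46 and 10.83 CPM in WT and 21.45, 22.49 and 27.27 in KO. WT 3 was the low embryo, and the rise of 0.65 ± 0.1604 (edgeR adjusted p = 0.00989) was lost without WT 3 or KO 3 (highest 0.0584). Notch1 also rose in cluster 1 by 0.86 (0.0102; lost without WT 3 or KO 1, highest 0.0605) and in layer V-VI-like neurons by 0.57 (0.013; without WT 1, 0.0595), where its KO level was 3.169 CPM. In layer V-VI-like neurons Hes1 was 0.334, 0.439 and 0.423 CPM in WT, 0.485, 0.276, 0.361 and 0.691 in Het and 0.951, 0.976 and 0.989 in KO. These are low levels, from 35 UMIs in WT and 78 in KO. Hes1 stood at 0.126 CPM in erythroid-like and at 12.85 in microglia-like cells, and the part of background in the neurons was not tested. The rise was 1.27 ± 0.303 over WT (edgeR adjusted p = 0.0055) and 1.35 ± 0.281 over Het 1 to 3 (0.00585), both called without any 1 embryo. At no more than 5% mitochondrial UMIs the second was not called, nor was the Notch1 rise in these neurons. Hes5 fell there by 0.67, from 1.366 to 0.848 CPM (adjusted p = 0.0453; lost without any of 6 embryos, WT 2, WT 3, Het 1, Het 2, KO 1 and KO 2, highest 0.144) and under DESeq2. These Hes5 levels are near the 0.757 CPM of erythroid-like cells, lie below the 3.115 of microglia-like cells and are not read as expression in neurons.

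Of these 15 calls between KO and WT outside the progenitors, 4 remained with the name beginning as a covariate: Hey1 in layer II-IV-like neurons, cluster 1 and cluster 7, and Hes1 in layer V-VI-like neurons. That covariate can be estimated only from Het 4 against Het 1 to 3.

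In 6 further classes none of the 22 Notch gene tests between KO and WT was called by edgeR, with 4 at an unadjusted p under 0.05 and 1, Hes1 in mural and fibroblast-like cells, called by DESeq2. All genes were called there at 0.286% in mural and fibroblast-like cells, 1.06% in cluster 20, 2.04% in cluster 14, 5.38% in layer I-like cells, 5.55% in microglia-like cells and 8.43% in sub-cluster 5. Notch3 in mural and fibroblast-like cells, its main site, was 132.6, 174.8 and 170.8 CPM in WT, 105.8 to 161.2 in Het and 147.3, 147.1 and 161.5 in KO, and the groups overlapped.

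Outside the progenitors no Notch gene was called in Het against WT in 14 classes (86 tests by edgeR, 9 at an unadjusted p under 0.05, 0 called by DESeq2). Of all genes, 5.33% were called there in layer II-IV-like, 4.39% in cluster 1, 2.39% in striatal inhibitory-like, 2.13% in cluster 7, 1.82% in layer V-VI-like, 0.796% in sub-cluster 0, 0.256% in sub-cluster 5, 0.179% in cluster 14, 0.152% in layer I-like, 0.0106% in mural and fibroblast-like and 0.00849% in cluster 6 cells, and 0% in interneuron-like, microglia-like and cluster 20 cells. Between KO and Het 1 to 3, none of 52 tests in 9 classes was called by edgeR or DESeq2, with 11 at an unadjusted p under 0.05. Of all genes, 5.58% were called there in cluster 7, 1.6% in sub-cluster 0, 1.01% in layer I-like, 0.801% in sub-cluster 5, 0.754% in interneuron-like, 0.71% in striatal inhibitory-like and 0.0087% in cluster 6 cells, and 0% in cluster 20 and mural and fibroblast-like cells.

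Summed over all cells, 5 of the 10 genes rose in KO and none fell, beside 24.5% of 17647 genes called: Dll1, Hey1, Notch1, Notch2 and Jag1. Dll1 was 8.970, 8.860 and 8.440 CPM in WT, 11.03, 10.88, 9.760 and 10.72 in Het and 13.14, 14.08 and 15.17 in KO. The 3 genotypes did not overlap. The rise was 0.69 ± 0.067 over WT (edgeR adjusted p = 4.193e-05) and 0.42 ± 0.069 over Het 1 to 3 (adjusted p = 0.00705). Hey1 was 6.523, 7.006 and 6.498 CPM in WT, 7.628, 6.937, 7.390 and 7.307 in Het and 10.70, 9.971 and 10.65 in KO. Only KO stood apart, with a rise of 0.65 ± 0.065 over WT (adjusted p = 5.157e-05) and 0.51 ± 0.062 over Het 1 to 3 (adjusted p = 0.00161). These 2 were the genes called in that comparison, beside 6.14% of all genes. Hes1 differed from Het 1 to 3 by 0.37 (adjusted p = 0.187), which was called with the replicate block (0.37, adjusted p = 0.0225).

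Notch1 over all cells was 19.57, 21.56 and 21.18 CPM in WT, 22.79 to 27.42 in Het and 30.62, 27.55 and 31.48 in KO. The ranges rose with the number of stop alleles, by 0.53 ± 0.074 in KO (edgeR adjusted p = 0.000405) and 0.32 ± 0.069 in Het (0.036). Notch2 was 3.968, 4.359 and 3.905 CPM in WT, 4.858 to 7.141 in Het and 8.488, 5.754 and 7.761 in KO. WT lay below every mutant embryo, and the KO rise was 0.85 ± 0.168 (adjusted p = 0.00291). Jag1 was 3.515, 3.474 and 3.775 CPM in WT, 4.026 to 6.438 in Het and 5.427, 4.967 and 5.011 in KO. It rose by 0.52 ± 0.141 in KO (adjusted p = 0.0145) and by 0.56 ± 0.132 in Het (0.0433), where Het 3, with its excess of endothelial-like cells, was the highest embryo. Without endothelial-like cells every one of these calls over all cells remained. With the name beginning as a covariate, the KO calls of Dll1, Hey1 and Notch1 remained, while Notch2 (0.42, adjusted p = 0.334) and Jag1 (0.01, adjusted p = 0.977) were no longer called.

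In Het over all cells 3 of 10 genes were called, beside 2.98% of all genes: Notch1, Jag1 and Dll1 (0.28 ± 0.063, edgeR adjusted p = 0.039). DESeq2 also called Notch2, at 0.58 by edgeR (adjusted p = 0.0565), and Hes1, the 1 gene of these that was lower in Het, at −0.43 (edgeR adjusted p = 0.0921, DESeq2 0.0267). Hes1 was 10.07, 9.211 and 7.810 CPM in WT and 5.452 to 7.897 in Het. None of the edgeR calls was stable to leaving out an embryo. The Notch1 call was lost in 7 of 10 cases (highest adjusted p = 0.126; not without Het 2, Het 4 or KO 2), the Dll1 call in 8 (0.143; not without Het 3 or Het 4) and the Jag1 call in 9 (0.124; not without Het 4). Jag2 was 10.03, 9.085 and 10.10 CPM in WT, while Het embryos held 7.744 to 9.004 and KO embryos 8.496 to 8.572. Mutants lay below WT, and the KO value of −0.19 was not called (adjusted p = 0.0503).

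Levels summed over all cells move with the shares of the classes. Radial glia-like cells made up 1.32% to 1.84% of WT and 1.98% to 3.06% of KO cells, intermediate progenitor-like cells 1.67% to 1.79% and 2.97% to 3.44%, and layer II-IV-like neurons, which held little Notch1, 14.1% to 15.9% and 9.796% to 11.02%. When the share of UMIs from each class was set in every embryo to the WT mean, the KO difference in Notch1 on the log2 CPM scale was 0.13 where 0.48 was measured. That in Notch2 was 0.46 against 0.79 and that in Jag1 was 0.31 against 0.47. Dll1 (0.47 against 0.65) and Hey1 (0.49 against 0.60) kept more of their difference, and none of these 5 overlapped between KO and WT. Hes5 was −0.34 at WT shares, without overlap, where −0.14 was measured with overlapping embryos. For all of these the two-sided exact permutation p was 0.1, the smallest possible, except measured Hes5 (p = 0.7).

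**Figure D4:**
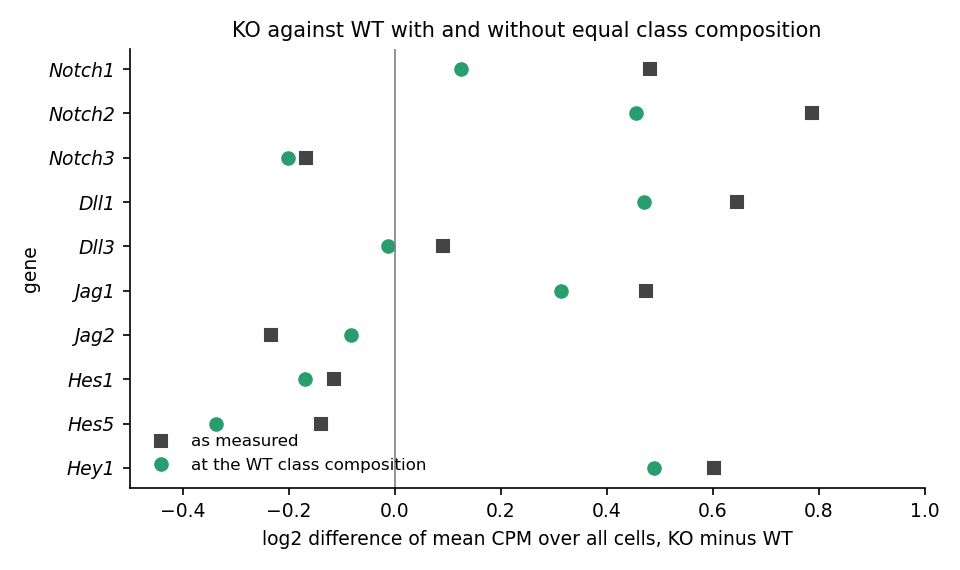
KO minus WT difference in mean log2 CPM over all cells for each gene, as measured (squares) and with the class shares of UMIs of every embryo set to those of WT (circles). Notch1 moves from 0.48 to 0.13, Dll1 from 0.65 to 0.47 and Hey1 from 0.60 to 0.49.

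A list of 46 other genes of the pathway was read from the same fits. Over all cells 7 rose and 4 fell in KO of 45 tested, a share near the 24.5% of all genes called. The strongest was Dtx4, an E3 ubiquitin ligase of the Deltex family, with 24.73, 25.37 and 23.49 CPM in WT, 14.04, 15.71, 15.94 and 14.21 in Het and 8.337, 8.373 and 8.221 in KO. Its levels stepped down with each stop allele, by 0.71 ± 0.052 in Het (edgeR adjusted p = 0.000362) and 1.56 ± 0.059 in KO (1.108e-07). Mfng, a Fringe glycosyltransferase that modifies Notch receptors, stepped up instead: it ranged over 14.62–15.54 CPM among WT embryos, over 20.24–23.79 among Het embryos and over 29.62–33.11 among KO embryos. The rise was 0.55 ± 0.059 in Het (adjusted p = 0.00349) and 1.08 ± 0.063 in KO (1.483e-06). The ligand-activating ligase Mib1 (0.40), the feedback inhibitor Nrarp (0.55), Hes6 (0.36), Numb (0.29), Dner (0.28) and Furin (0.32) also rose, and Fbxw7 (−0.36), which marks the cleaved receptor for degradation, the γ-secretase subunit Psen2 (−0.26) and Hes7 (−0.48, adjusted p = 0.0471, named only to complete the count) fell.

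Within radial glia-like cells, the Fringe genes moved in opposite directions and were 2 of 40 called, beside 18.6% of all genes. Lfng was 69.05, 73.85 and 70.99 CPM in WT, 50.12, 56.90, 50.05 and 58.20 in Het and 35.54, 33.95 and 40.65 in KO. Its ranges did not overlap, as for Hes5, and it fell by 0.95 ± 0.107 in KO (edgeR adjusted p = 8.675e-06) and by 0.41 ± 0.097 in Het (0.046). Mfng was 11.14, 18.04 and 11.10 CPM in WT, 18.37 to 21.14 in Het and 30.95, 24.65 and 19.81 in KO, a rise of 0.87 ± 0.208 (0.00611). Nrarp, a further RBPJ target, was 68.61 to 86.87 CPM in WT and 79.98 to 87.23 in KO, so it did not follow Hes5 in these cells.

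Within intermediate progenitor-like cells 9 of 36 rose and none fell in KO, beside 16.51% of all genes called in either direction. Numbl, an inhibitor of Notch receptors and relative of Numb, was 34.82, 31.45 and 36.54 CPM in WT, 34.46 to 41.03 in Het and 60.83, 63.25 and 63.40 in KO. KO stood alone, with a rise of 0.87 ± 0.105 (edgeR adjusted p = 8.284e-05). Nrarp was 20.56, 25.84 and 24.66 CPM in WT, 35.04, 41.90, 44.03 and 40.19 in Het and 40.23, 48.99 and 50.23 in KO. Both mutant groups lay above WT, with rises of 0.96 ± 0.139 in KO (adjusted p = 0.000335) and 0.75 ± 0.137 in Het (0.0284). Hes6, which opposes Hes1, rose by 0.52 (0.00492), Mib1 by 0.44, Mfng by 0.42, Numb by 0.68, Ncstn by 0.62, Dtx3 by 0.38 and Maml1 by 0.70. In ganglionic eminence progenitor-like cells Mib1 (0.58) and Mfng (0.43) were the genes that rose, of 38 tested, beside 6.69% of all genes called.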

How the data were processed

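The authors aligned reads and counted unique molecular identifiers (UMIs) with Cell Ranger (6.0.2 in the file headers) against mm10, and deposited raw counts of UMIs for 31053 genes and each barcode, as 1 filtered matrix per embryo with no cell type labels. Barcodes under 1000 UMIs or over 10% mitochondrial UMIs were dropped. Counts were log-normalized per cell, and 2000 variable genes, without the Notch and pathway genes, gave 30 principal components that were integrated over embryos by reciprocal PCA and clustered (Seurat 5.3.0). Progenitor clusters were clustered again without 165 cell cycle genes, a step added after the first clusters were seen. Clusters were named "-like" from marker lists where at least 3 markers were detected. Scrublet's own threshold marked 0.0128% to 2.15% of cells per embryo as doublets. No cells were removed for the main values, and an alternative removed the cells with the highest scores, 4.8% to 8.31% per embryo.

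UMIs were summed per embryo and class with at least 20 cells per embryo, which left 19 of 25 classes, and fitted with edgeR 4.0.16 (low-count filter, TMM scaling, quasi-likelihood F-test, Benjamini-Hochberg adjustment over all genes tested). All 10 embryos entered the fit for KO against WT and Het against WT, and Het 1 to 3 and KO 1 to 3 that for KO against Het. Calls needed both an adjusted p below 0.05 and a log2 fold change larger than 0.25 in size. DESeq2 1.42.0 was an alternative. On simulated counts for KO against WT in radial glia-like cells (11361 genes, 200 changed), 79% of changes of 1 and 42% of changes of 0.5 on the log2 scale were recovered. The embryo is the replicate; the study describes WT and Het embryos as littermates, and which embryos shared a litter is not given in the sources used here. Deviations from the group means correlated at 0.1101, 0.1005 and 0.1121 between Het and KO embryos of the same number, over 13572 genes. Between Het and KO embryos of different numbers they ranged from −0.2275 (Het 1 and KO 3) to 0.1129 (Het 1 and KO 2). The highest value was thus not from a same-numbered pair, and a shared litter is not shown. Same-numbered embryos were also fitted with a replicate block. Of the 113 results between KO and Het 1 to 3 it changed the call of 3, and its value stands beside those. Over all comparisons it kept 39 of the 42 called results. Its further effects are given below only as counts of calls.

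The 10 genes, the pathway list and the marker lists were chosen with earlier results of these data known. Other pathway genes were named where called without overlap of the groups, up to 10 per comparison by adjusted p, and 1 that met this rule is not reported here.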

Additional observations from a re-analysis of the deposited data

Results flagged for a closer look

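The effect of genotype on Hes5 differed between progenitor classes by a test of the difference itself. For KO against WT it was 2.21 higher (log2, edgeR adjusted p = 1.03e-06) in intermediate progenitor-like and 1.81 higher (adjusted p = 0.000172) in ganglionic eminence progenitor-like than in radial glia-like cells. For Het against WT it was 0.971 higher (adjusted p = 0.0327) in intermediate progenitor-like than in radial glia-like cells.

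Of 41 groups of 4 embryos examined, 3 held an embryo whose gap to its neighbour took up most of the group's range (Dixon's test at 95%), where chance gives about 1 in 20. Hes5 in intermediate progenitor-like cells stood at 30.7 CPM in Het 2 and at 16.47, 16.75 and 17.86 CPM in the other Het embryos. Dll1 in ganglionic eminence progenitor-like cells stood at 39.9 CPM in Het 2, against 43.1, 43.4 and 43.7. Endothelial-like cells made up 6.004% of Het 3, against 0.316%, 0.325% and 0.325%.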

How the results depend on the processing

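Of the 42 called results, 23 were called without any 1 embryo. With the library-name beginning as a covariate, the calls between KO and WT went from 5 to 3 over all cells, from 9 to 2 in progenitor classes and from 15 to 4 in other classes, and Notch2 in radial glia-like cells turned to −0.048. Leaving out an embryo gave 8 to 14 calls in other classes, with 8 without WT 3, and 6 to 9 in progenitor classes. Between Het and WT, 3 calls over all cells became 5 with DESeq2, 5 with a replicate block, 5 at no more than 5% mitochondrial UMIs, 0 with the covariate, 0 with only the 2 groups fitted and 0 to 4 without 1 embryo. The 0 calls in progenitor classes became 1 with DESeq2, 5 without a filter on low counts, 3 with the replicate block, 1 with only the 2 groups and 0 to 2 without 1 embryo, and the 0 in other classes became 1 with the replicate block. WT and Het embryos are described as littermates, but no source ties equal numbers to a litter (correlations of 0.3205, 0.06242 and 0.02102). Between KO and Het, 3 calls in progenitor classes became 7 without the filter and 1 without integration. Of the 42 called results, DESeq2 kept 34, no more than 5% mitochondrial UMIs 37, no filter on low counts 39, the replicate block 39, removal of doublets 40 and a higher minimum of UMIs all 42. Fitting only the 2 groups kept 26 of 32, and clustering without integration 8 of the 12 in progenitors. The causes were not tested. Dll3 in radial glia-like cells rested on 17 to 50 UMIs and Notch2 in intermediate progenitor-like cells on 33 to 98 UMIs per genotype.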

Other observations

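Within radial glia-like cells thinned to 5000 UMIs, those with a Dll1 UMI held Hes5 less often than those without in 10 of 10 embryos, a description with no test over cells that share a library. Hes5 was found in 30.77% to 60% of the cells with Dll1, with 2 to 7 cells holding both per embryo, and in 48.45% to 70.45% of the cells without. Pooled over embryos the shares were 43.81% and 60.63%. In ganglionic eminence progenitor-like cells the odds of a Hes5 UMI were instead higher with Dll1 in 8 of 10 embryos (median odds ratio 1.868). The same held in 8 of 10 embryos in intermediate progenitor-like cells (median 1.755). The fewest cells holding both in an embryo were 2 and 0.

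Over 32 clusters of WT cells, the gene among 14717 whose levels were most like those of Notch1 was Myo10 (Pearson r = 0.97), that of Notch2 was Lfng (0.90), that of Hes5 was Hepacam (0.97), that of Hes1 was S1pr1 (0.95) and that of Dll3 was Dll1 (0.75). The clusters share libraries, and these are descriptions. In the untested glial progenitor-like cells the mean level of Hes5 was 596 CPM in WT, 488 in Het and 493 in KO, and that of Hes1 was 97.4, 66.9 and 61.0. These cells made up 0.494% to 0.978% of WT and 0.291% to 0.409% of KO cells.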
